A study of Mus musculus with 12 samples.

Results

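Myh6 and Myh7 encode the cardiac myosin heavy chains, the motor proteins of the thick filament, and were described here by every probe set that the array annotation assigns to either gene. Of 12422 probe sets that are no control, 3 met this rule. They were 101071_at for Myh6, and a bright (98616_f_at) and a dim (161547_f_at) probe set for Myh7, so that 2 of 8251 named genes were described. No probe set (0) listed either gene among several symbols, and all 3 passed the filter on low signals. The animals were male NMRI mice aged 10 to 15 weeks, and cardiac muscle was profiled on Affymetrix MG_U74Av2 oligonucleotide arrays. Healthy mice and diabetic mice were each kept sedentary or trained, which made 4 conditions with 1 array apiece at 1, 3 and 5 weeks (12 arrays). Diabetic mice had received 1 dose of 180 mg/kg streptozotocin, a toxin of the insulin-producing beta cells, and healthy mice the buffer alone. Treadmill training took 1 h a day on 5 days a week, at 21 m/min on an incline of 2.5 degrees, and tissue was collected 24 h after the last run. Each array held a single pool of RNA from 5 mice, so neither SDs nor p-values describe the spread between animals. SDs span pools of different weeks, whereas the p-values of the main tests rest on the spread between pools with week taken into account.

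The alpha heavy chain, from Myh6, is the fast isoform and the main one of the adult mouse ventricle, whereas the beta heavy chain, from Myh7, is the slow isoform of the fetal ventricle and of slow skeletal fibres. Thyroid hormone is known to activate Myh6 and to repress Myh7, and a shift from alpha to beta is a known feature of the rodent heart under pressure load, hypothyroidism and insulin deficiency. Both genes lie on mouse chromosome 14 with 0 genes wholly between them in the RefSeq annotation, and the long noncoding RNA Mhrt starts between them. The design asks how diabetes, training and their combination change cardiac transcripts, and for these genes how the balance of the isoforms moves.

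The sequences before the start of each gene are shown because stretches like these are known to carry sites for muscle and hormone-dependent factors that act on the 2 genes. Each window is the 250 bases before a listed start on build GRCm38.p6, minus strand, from RefSeq. The windows are chr14:54966608-54966857 for Myh6 and chr14:54994627-54994876 for the more upstream of 2 listed Myh7 starts. In capitals stand the M-CAT core CATTCC, the letters bound by TEAD factors, here found on the opposite strand as GGAATG in both windows, and, in the Myh6 window, a match to the letters AGGTNA and AGGNCA with 4 bases between them, on the opposite strand.
Myh6: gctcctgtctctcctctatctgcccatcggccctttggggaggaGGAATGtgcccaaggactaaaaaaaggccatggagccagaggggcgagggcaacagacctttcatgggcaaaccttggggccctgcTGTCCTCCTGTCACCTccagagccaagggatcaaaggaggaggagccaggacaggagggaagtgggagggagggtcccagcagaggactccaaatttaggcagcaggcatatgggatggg
Myh7: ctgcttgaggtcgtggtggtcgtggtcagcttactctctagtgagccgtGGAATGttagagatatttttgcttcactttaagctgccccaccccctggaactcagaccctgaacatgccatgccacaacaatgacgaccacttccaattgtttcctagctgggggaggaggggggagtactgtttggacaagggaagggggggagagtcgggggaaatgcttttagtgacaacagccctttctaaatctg
The M-CAT core lay at -206 to -201 from the Myh6 start and at -201 to -196 from this Myh7 start, and 12.6% of 32851 windows of the same length over all genes held it on either strand. The longer match, at -120 to -105 of Myh6, has the letters of an imperfect thyroid hormone response element, as is known from the rat Myh6 promoter, and 0.177% of windows held it. That motif was written down after the Myh6 sequence had been looked at, so its rarity is a description alone. The window of the other Myh7 start held no match to either motif. The M-CAT core and the longer motif do not overlap, and a match does not show that a factor binds there.

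Each gene also carries a microRNA in an intron, shown because the pair share their seed (bases 2 to 8, in capitals). The miR-208a-3p sequence lies at chr14:54949072-54949093 inside Myh6, and miR-208b-3p at chr14:54975710-54975731 inside Myh7, both on the minus strand of GRCm38.p6.
miR-208a-3p: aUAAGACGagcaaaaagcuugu
miR-208b-3p: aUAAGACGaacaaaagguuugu
They differ at 3 of 22 bases, G10A, A16G and C18U, counted from the 5' end with the miR-208a base first. The microRNAs themselves were not analysed here.

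Signals are MAS5 probe set intensities on a linear scale, with each array scaled to a common trimmed mean (50.03 to 50.04). The number of arrays limits the precision. Median signals were 16.6 to 20.4 on 11 arrays and 25.4 on the diabetic trained array of week 3. The mean correlation of that array with the others was 0.785, against 0.900 to 0.931 for the rest, and results that rest on it are also given without it. That array also had a run day and a chip lot of its own, which the week term of the fit does not cover. Apart from it, each week was run on a day of its own, and each condition on a fluidics module of its own. The effects of condition and of module cannot be told apart. The defining markers of cardiac muscle were present on every array, with a summed signal over 10 of 12 listed genes of 25083.8 to 35518.9 in diabetic and 28287.2 to 35478.1 in healthy hearts. Myh6 itself is 1 of the 10.

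Diabetic hearts gave a higher Myh7 signal than healthy ones over both training states, 3.07-fold by the bright probe set and 3.43-fold by the dim one. All 6 week-matched pairs were higher with either probe set, and the share of all probe sets with all 6 pairs alike was not counted. In the fit of all arrays, the bright probe set passed the test within sedentary and within trained hearts. The dim probe set passed in neither state in that fit. With only the arrays compared, the bright probe set did not pass in trained hearts, and the dim probe set passed in sedentary hearts. The Myh6 signal over both training states was 1.20-fold lower in diabetic hearts, a difference that did not pass the test, and the groups overlapped. The plot of the 3 probe sets by condition shows every array. In bulk tissue, fewer cells of a type and less RNA per cell cannot be told apart.

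**Figure D1:**
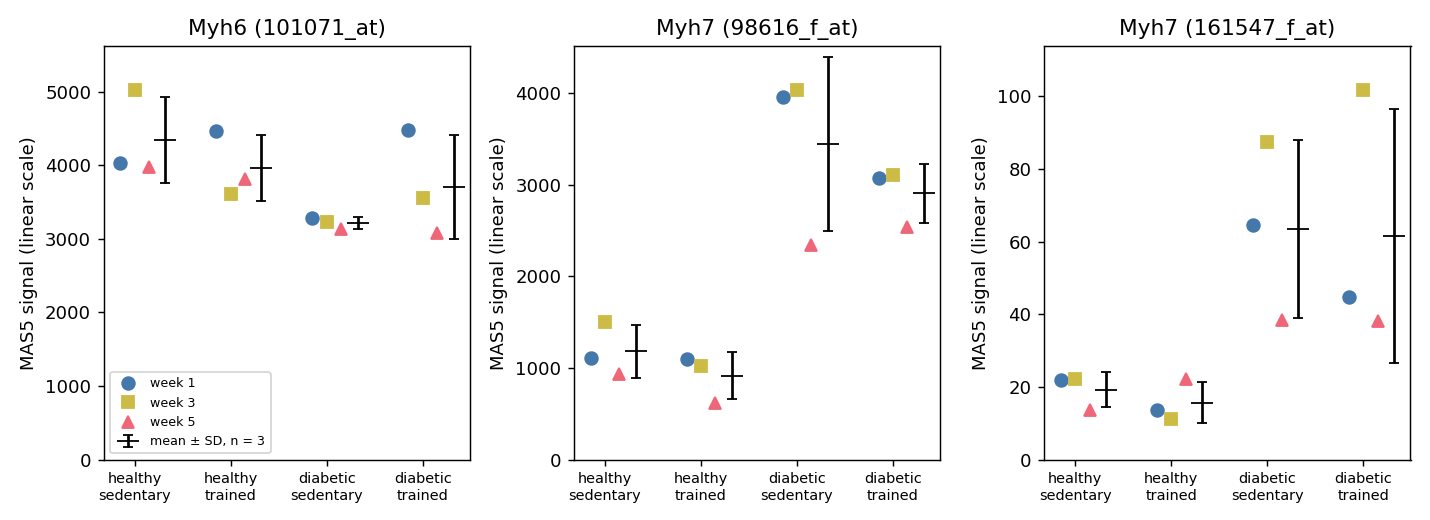
MAS5 signal (linear scale) of the Myh6 probe set and of both Myh7 probe sets in the 4 conditions, with 1 point per array (pool of 5 mice), the week as colour and shape, and bars for the mean ± SD (n = 3). The Myh7 signals of the 6 diabetic arrays lie above those of the 6 healthy arrays in both Myh7 panels, whereas the Myh6 signals overlap.

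At weeks 1, 3 and 5, the bright Myh7 probe set read 1106.1, 1503.9 and 934.9 in healthy sedentary hearts and 1099.6, 1026.2 and 624.3 in healthy trained hearts. It read 3962.2, 4031.7 and 2348.4 in diabetic sedentary hearts and 3070.6, 3107.8 and 2539.5 in diabetic trained hearts. The lowest diabetic array (2348.4, diabetic sedentary, week 5) stood above the highest healthy array (1503.9, healthy sedentary, week 3), so the groups did not overlap. How many of all probe sets separate diabetic from healthy arrays in this way was not counted, here or below. By condition the means were 3447 ± 952 in diabetic sedentary, 2906 ± 318 in diabetic trained, 1182 ± 292 in healthy sedentary and 917 ± 256 in healthy trained hearts (SD, n = 3). The trained and sedentary means differed by less than the larger SD in diabetic and in healthy hearts, and only the step between diabetic trained and healthy sedentary hearts exceeded it. That step was a log2 difference of 1.32 ± 0.16 (SE), or 2.50-fold (limma, adjusted p = 0.0175), in a comparison added after the data had been seen, in which 4 probe sets (0.0537%) were called, 3 of them (0.0403%) higher. With single arrays left out the count of 4 ran from 0, without any of the 6 arrays named next, to 20, without the diabetic trained array of week 1. It was 2 without the diabetic sedentary array of week 1 or the healthy trained array of week 5. The adjusted p rose above 0.05 when any of 6 single arrays was left out, namely each healthy sedentary array (0.157, 0.0552 and 0.157 for weeks 1, 3 and 5), the diabetic trained array of week 5 (0.065) or the healthy trained array of week 1 (0.056) or week 3 (0.0529).

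Over both training states, the bright Myh7 probe set averaged 3177 ± 701 in 6 diabetic and 1049 ± 285 in 6 healthy arrays (SD). The log2 difference was 1.62 ± 0.11 (SE; 95% interval 1.37 to 1.87), which is 3.07-fold, with an adjusted p of 7.95e-05 in limma over 7453 probe sets. It was higher in 6 of 6 week-matched pairs, by 1.33 to 2.02 on the log2 scale, and had the smallest p of all probe sets tested. Of the probe sets tested, 57 (0.765%) were called in either direction at an adjusted p under 0.05, 28 (0.376%) higher and 29 (0.389%) lower. Both Myh7 probe sets were among those called higher, and Myh6 was not called. The count of 57 ran from 5 to 154 when single arrays were left out and moved by more than 1.5 times for each of them other than the diabetic sedentary array of week 5. Without the diabetic trained array of week 3 it was 154. The call on the bright Myh7 probe set itself held without each of the 12 arrays, and was lost only when all 4 arrays of week 5 were left out, with a difference of 1.59 and an adjusted p of 0.0501.

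The second Myh7 probe set, the dim one, gave a far dimmer signal, which ranked between 1804 and 7674 among the probe sets of an array. At weeks 1, 3 and 5 it read 21.9, 22.3 and 13.8 in healthy sedentary and 13.8, 11.2 and 22.1 in healthy trained hearts. It read 64.6, 87.4 and 38.4 in diabetic sedentary and 44.7, 101.7 and 38.1 in diabetic trained hearts. The 6 diabetic arrays (38.1 to 101.7) again did not overlap the 6 healthy ones (11.2 to 22.3). On 3 healthy arrays it was at or below 13.8, the highest signal among 16 control probe sets for bacterial and yeast RNA, so its healthy level, and with it the fold, is less certain than that of the bright Myh7 probe set. The means were 62.5 ± 27.0 and 17.5 ± 5.11 (SD, n = 6), a log2 difference of 1.78 ± 0.28 (SE; 95% interval 1.18 to 2.38) or 3.43-fold.

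That difference had an adjusted p of 0.019 in limma and was present in 6 of 6 week-matched pairs, by 0.79 to 3.18. The widest pair was the trained pair of week 3, which includes the array that stood apart. Without that array the difference was still called. The adjusted p rose above 0.05 without any of 6 other arrays, to 0.0526, 0.0769 and 0.0731 without the healthy sedentary arrays of weeks 1, 3 and 5, to 0.0753 and 0.0715 without the diabetic sedentary arrays of weeks 1 and 3, and to 0.0546 without the healthy trained array of week 1. The size stayed between 1.53 and 2.05 without single arrays. Across the 12 arrays the log2 signals of the 2 Myh7 probe sets correlated at r = 0.874, a description, since the points share arrays and condition.

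Identifiers ending in _f_at mark probe sets whose probes can match several members of a gene family. The skeletal muscle chains that the array covers were therefore read beside Myh7, but probe sequences were not compared. Myh7b and Myh13 had no probe set named for them alone. The skeletal fast and embryonic chains stayed near background, with Myh1 (the IIx chain) at 0.3 to 8.9, Myh2 (IIa) at 1.2 to 7.9 and Myh3 (embryonic) at 0.5 to 6.6 over all arrays. The perinatal chain, Myh8, reached 14.7 at most on its 2 probe sets. One probe set for Myh4 (IIb) read 25.3 to 45.0 in diabetic and 27.6 to 52.0 in healthy hearts, and the other 0.6 to 22.0. Of these, only the former passed the filter, and it differed by -0.08 ± 0.17 (SE) on the log2 scale between diabetic and healthy hearts (adjusted p = 0.892 in limma). How much of the Myh7 signal came from Myh6 RNA was not tested, and the Myh6 probe set itself was not higher in diabetic hearts.

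The Myh6 probe set was among the brightest of every array, at rank 3 to 10 and at 37.19% to 94.63% of the brightest signal. The lowest share was that of the diabetic trained array of week 3, and every other array stood at 75.48% or more. Whether readings this high were near saturation, which would narrow differences in Myh6 and in the ratios to it, was not tested. At weeks 1, 3 and 5 it read 4023.5, 5017.2 and 3978.5 in healthy sedentary and 4465.6, 3614.0 and 3816.3 in healthy trained hearts. It read 3287.9, 3227.1 and 3133.1 in diabetic sedentary and 4473.1, 3557.8 and 3076.9 in diabetic trained hearts. The 3 diabetic sedentary arrays lay below all healthy arrays, while the diabetic trained arrays spanned nearly the whole range, from the lowest value of all to one of the highest. Means ran from 4340 ± 587 in healthy sedentary and 3965 ± 445 in healthy trained to 3703 ± 709 in diabetic trained and 3216 ± 78.0 in diabetic sedentary hearts (SD, n = 3). Each step in this order was smaller than the larger SD of its neighbours.

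Over both training states, Myh6 averaged 3459 ± 524 in diabetic and 4153 ± 509 in healthy hearts (SD, n = 6). The log2 difference was -0.27 ± 0.12 (SE; 95% interval -0.52 to -0.02), with an unadjusted p of 0.0395 and an adjusted p of 0.398 in limma. It was lower in 5 of 6 week-matched pairs. In the sedentary pairs the differences were -0.29, -0.64 and -0.34 at weeks 1, 3 and 5, and in the trained pairs 0.0025, -0.02 and -0.31. Sedentary diabetic hearts were 1.34-fold below sedentary controls (log2 -0.42 ± 0.16 SE, adjusted p = 0.55) and trained diabetic hearts 1.08-fold below trained controls (log2 -0.11 ± 0.16 SE, adjusted p = 0.802). The difference between those effects, a log2 interaction of 0.31 ± 0.23 (SE), did not pass the test (adjusted p = 0.859 in limma).

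In the pairwise comparisons, the bright Myh7 probe set was higher in diabetic sedentary than in healthy sedentary hearts by a log2 of 1.53 ± 0.16 (SE), or 2.89-fold, with an adjusted p of 0.00299 in limma. That comparison called 4 probe sets (0.0537%), a count that was 2 without the healthy sedentary array of week 1 or the diabetic sedentary array of week 3. Without the diabetic sedentary array of week 1, the difference was 1.46 with an adjusted p of 0.0586 and 0 probe sets were called, whereas without the diabetic trained array of week 3 the count was 60. Between diabetic trained and healthy trained hearts, the bright Myh7 probe set was higher by 1.70 ± 0.16 (SE), or 3.25-fold (adjusted p = 0.00197 in limma), 1 of 2 probe sets called (0.0268%). This call held without each single array, and the count was 14, 5 and 4 without the diabetic trained arrays of weeks 1, 3 and 5. Week-matched differences of the bright Myh7 probe set were 1.84, 1.42 and 1.33 at weeks 1, 3 and 5 in sedentary pairs, and 1.48, 1.60 and 2.02 in trained pairs. They fell with week in one state and rose in the other, and the fitted slope of the diabetes effect over weeks was 0.0038 ± 0.077 on the log2 scale (SE; adjusted p = 1 in limma).

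For the dim Myh7 probe set the same pairwise differences were 1.67 ± 0.39 and 1.89 ± 0.39 (SE), with adjusted p-values of 0.201 and 0.203 in limma. Neither passed the test, although each exceeded 3-fold. The trained comparison passed without the healthy trained array of week 5 (2.44, adjusted p = 0.0447). The diabetes by training interaction was 0.17 ± 0.23 for the bright Myh7 probe set and 0.22 ± 0.55 for the dim Myh7 probe set (SE), with adjusted p-values of 0.879 and 0.927 and 95% intervals of -0.33 to 0.67 and -0.99 to 1.42. A dependence of the Myh7 response on training within those intervals was not detectable with this number of arrays. No probe set (0) was called for the interaction in limma, with 321 at an unadjusted p under 0.05.

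**Figure D2:**
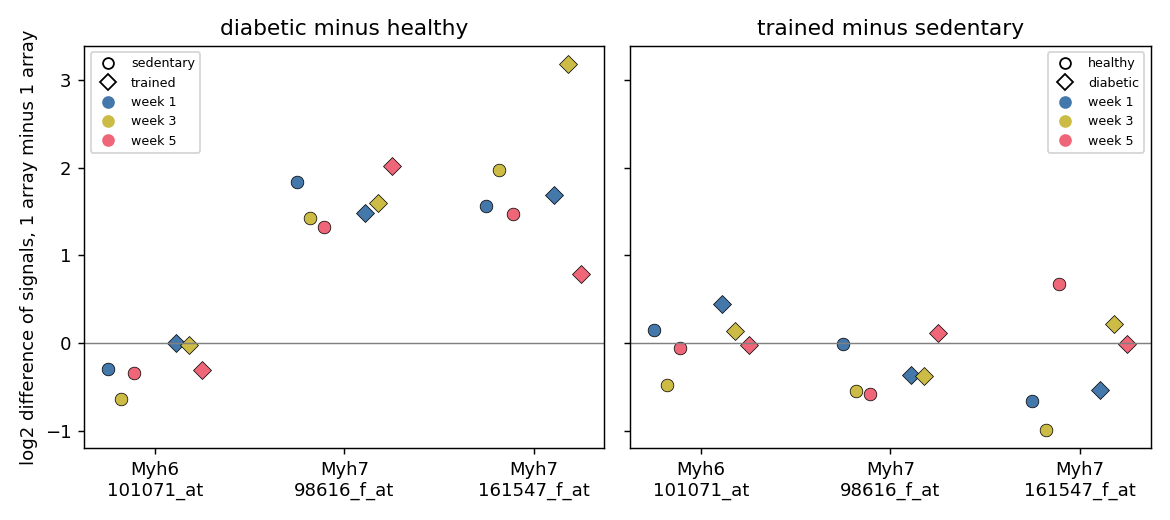
Log2 differences between week-matched arrays (1 array minus 1 array) for the 3 probe sets, diabetic minus healthy on the left and trained minus sedentary on the right, with the week as colour and the other factor as shape. All 6 diabetes differences of each Myh7 probe set lie above 0 (0.79 to 3.18). Those for training lie on both sides of 0, from -0.58 to 0.11 for the bright and from -0.99 to 0.68 for the dim Myh7 probe set.

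Training changed neither gene past the test. Over both disease states, the bright Myh7 probe set was lower in trained hearts by a log2 of -0.30 ± 0.11 (SE; 95% interval -0.55 to -0.05), lower in 5 of 6 week-matched pairs, with an unadjusted p of 0.0243 and an adjusted p of 0.998 in limma. Myh6 differed by 0.03 ± 0.12 and the dim Myh7 probe set by -0.22 ± 0.28 (SE), each with an adjusted p of 0.998. The training comparison called 0 of 7453 probe sets (0%) in limma, with 257 at an unadjusted p under 0.05.

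The week-matched training differences of the bright Myh7 probe set were -0.01, -0.55 and -0.58 in healthy hearts and -0.37, -0.38 and 0.11 in diabetic hearts at weeks 1, 3 and 5. The pair at week 5 of the diabetic hearts was the only one above 0. Healthy trained hearts stood 1.30-fold below healthy sedentary ones (log2 -0.38 ± 0.16 SE, adjusted p = 0.999) and diabetic trained hearts 1.16-fold below diabetic sedentary ones (log2 -0.21 ± 0.16 SE, adjusted p = 0.699). For Myh6 the differences were -0.13 in healthy and 0.19 in diabetic hearts, and for the dim Myh7 probe set -0.33 and -0.11. In diabetic hearts that had trained, the signal of the bright Myh7 probe set was thus still 2.50-fold that of healthy sedentary hearts, as given above.

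The balance of the isoforms was followed as the ratio of the Myh7 signal to the Myh6 signal on the same array. Probe sets differ in how brightly they read the same amount of RNA, so the ratio is compared between conditions and is not a ratio of molecules. With the bright Myh7 probe set, it was 0.275, 0.300 and 0.235 at weeks 1, 3 and 5 in healthy sedentary hearts, and 0.246, 0.284 and 0.164 in healthy trained hearts. It was 1.205, 1.249 and 0.750 in diabetic sedentary hearts and 0.686, 0.874 and 0.825 in diabetic trained hearts. The lowest diabetic ratio, 0.686, lay above the highest healthy one, 0.300, so the groups did not overlap. The means were 1.068 ± 0.277 in diabetic sedentary, 0.795 ± 0.0971 in diabetic trained, 0.270 ± 0.0327 in healthy sedentary and 0.231 ± 0.0616 in healthy trained hearts (SD, n = 3).

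**Figure D3:**
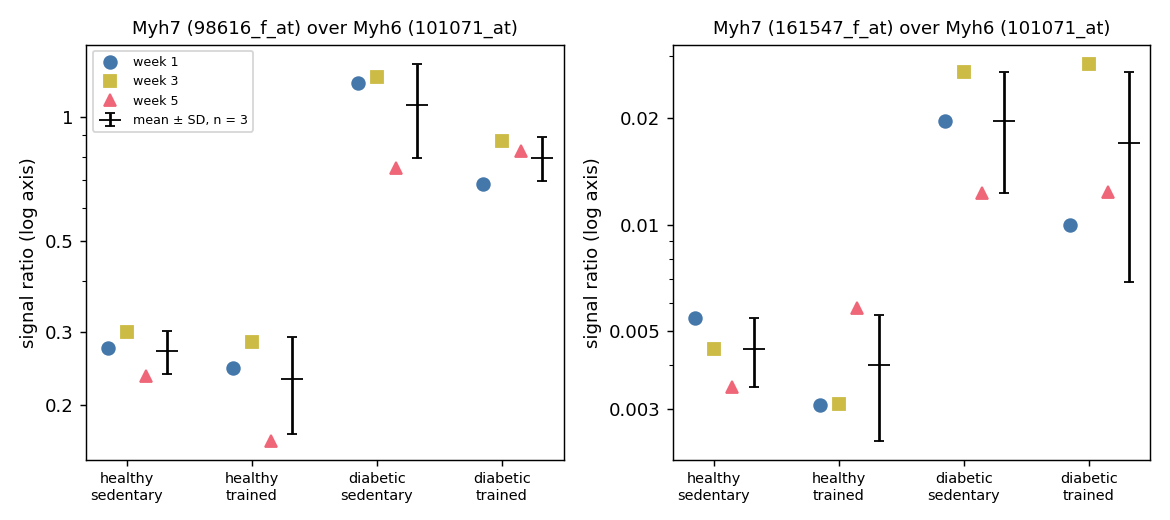
Ratio of the Myh7 signal (bright probe set left, dim probe set right) to the Myh6 signal of the same array, on a log axis, in the 4 conditions, with 1 point per array, the week as colour and shape, and bars for the mean ± SD (n = 3). The 6 diabetic ratios lie above the 6 healthy ones with either Myh7 probe set, and trained and sedentary arrays overlap within each disease state.

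Over both training states this ratio was 0.932 ± 0.238 in diabetic and 0.251 ± 0.0489 in healthy hearts (SD, n = 6). The log2 difference was 1.88 ± 0.13 (SE; 95% interval 1.56 to 2.21), or 3.69-fold, present in 6 of 6 week-matched pairs. A two-sided exact permutation test, which exchanged labels within weeks, gave p = 0.00926, the smallest that its 216 arrangements allow, and 0.0278 after adjustment over the 6 ratio tests. With 1 array left out the groups are unequal, so the fitted effect of training was removed before labels were exchanged. In that form the adjusted value was 0.0556 without the diabetic sedentary array of week 5, with a difference of 1.95, and 0.0278 without each of the other arrays, the same as with all 12. By state the log2 difference was 1.96 ± 0.19 in sedentary and 1.81 ± 0.19 in trained hearts (SE), and their difference of -0.14 ± 0.26 had an exact p of 1, where the smallest possible was 0.25.

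With the dim Myh7 probe set, the ratio was 0.544%, 0.444% and 0.347% in healthy sedentary hearts at weeks 1, 3 and 5, and 0.309%, 0.310% and 0.579% in healthy trained hearts. It was 1.965%, 2.708% and 1.226% in diabetic sedentary hearts and 0.999%, 2.859% and 1.238% in diabetic trained hearts. The diabetic arrays again all lay above the healthy ones. The log2 difference was 2.05 ± 0.35 (SE; 95% interval 1.19 to 2.90), or 4.13-fold, with an exact permutation p of 0.00926 and 0.0278 after adjustment. With training removed first, the adjusted value was 0.0556 without the diabetic sedentary array of week 5 (log2 2.20) and 0.0278 to 0.037 without each other array. The diabetes by training interaction was -0.10 ± 0.70 (SE; exact p = 0.75). With either probe set the ratio differed more than Myh7 alone, since the Myh6 signal in its denominator was lower on average in diabetic hearts.

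Training gave a lower ratio with the bright Myh7 probe set in 5 of 6 week-matched pairs, by -0.81 to 0.14 on the log2 scale. The difference was -0.32 ± 0.13 (SE), or 1.25-fold lower, with a 95% interval whose upper end lay just under 0. The exact permutation p was 0.62, adjusted 0.911. That test leaves the diabetes effect in the spread between arrays. With the fitted diabetes effect removed first, an alternative added after the data had been seen, p was 0.0278 and 0.0556 after adjustment, still outside the threshold. In that form it was 0.0278 without the diabetic trained array of week 5 (log2 -0.43), so that call turned on 1 array. With the dim Myh7 probe set the training difference was -0.25 ± 0.35 (SE; exact p = 0.759, adjusted 0.911), higher in 3 and lower in 3 of 6 pairs.

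Over time, the bright Myh7 probe set was lower at week 5 than at week 1 by a log2 of -0.52 ± 0.14 (SE; adjusted p = 0.0306) and than at week 3 by -0.62 ± 0.14 (SE; adjusted p = 0.0171, both limma). Those comparisons called 15.4% and 20.5% of probe sets, 6.9% and 10.2% of them lower, and with single arrays left out the counts ran from 272 to 2408 around 1145 and from 275 to 1717 around 1527, so a call is no mark of Myh7, and all tested probe sets had median shifts of -0.10 and -0.07. With arrays centred on their medians the differences were -0.35 and -0.35, with adjusted p-values of 0.296 and 0.241. Week 5 had a run day and a chip lot of its own and cannot be told apart from them. The adjusted p against week 1 rose to between 0.0546 and 0.132 without any of 6 arrays, which were the healthy sedentary array of week 5, the diabetic sedentary arrays of weeks 1 and 5, the diabetic trained array of week 1 and the healthy trained arrays of weeks 1 and 5. Against week 3 it was 0.0581 without the healthy sedentary array of week 3 and 0.0667 without the healthy trained array of week 5.

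Myh6 and the dim Myh7 probe set were not called in any comparison of weeks (adjusted p from 0.221 to 0.872 in limma). Myh6 was lower at week 5 than at week 1 by -0.21 ± 0.14, and the dim Myh7 probe set by -0.24 ± 0.34 (SE). Between weeks 1 and 3 all 3 probe sets differed by less than 0.34 on the log2 scale, and 0 probe sets were called in limma, with 530 at an unadjusted p under 0.05. The means of Myh6 over the 4 conditions were 4063 ± 558, 3854 ± 794 and 3501 ± 463 at weeks 1, 3 and 5 (SD, n = 4).

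None of the other contractile genes listed (0) passed the test for diabetes in limma, and the plot of contractile genes sets them on one scale. Over all probe sets 0.765% were called, a share at which lists this short hold few calls or none, so the counts of 0 are no mark of these genes. Of 4 other myosin heavy chains that passed the filter, 0 were called in either direction, with a median log2 difference of -0.11 against -0.02 over all probe sets. Of these, Myh9, a nonmuscle chain, stood at -0.36 ± 0.10 (SE, adjusted p = 0.142), Myh11, the smooth muscle chain, at -0.14, Myh4 at -0.08 and Myh14, a nonmuscle chain, at 0.07. Of 10 myosin light chains and their kinases 0 were called, and all 10 differences were below 0 (median -0.11), from -0.02 for the kinase Mylk to -0.52 ± 0.21 (SE, adjusted p = 0.358) for Myl4, the atrial essential light chain. By p, Myl7, the atrial regulatory chain, came before it at -0.45 ± 0.18 (SE, adjusted p = 0.347), and Myl1, the fast skeletal essential chain, after it at -0.25 ± 0.12 (SE, adjusted p = 0.479). The ventricular chains Myl2 and Myl3, which pair with both heavy chains in the ventricle, differed by -0.11 ± 0.12 and -0.16 ± 0.12 (SE). Of 5 thick filament partners 0 were called, with Myom2, an M-band protein, at 0.71 ± 0.16 (SE, adjusted p = 0.0741) and Smyd1, a methyltransferase that aids thick filament assembly, at -0.72 ± 0.18 (SE, adjusted p = 0.1). Of 11 thin filament genes 0 were called, with Acta1, skeletal actin, at -1.08 ± 0.26 (SE, adjusted p = 0.0898) and Tnnt1, slow troponin T, at -0.73 ± 0.17 (SE, adjusted p = 0.0805).

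**Figure D4:**
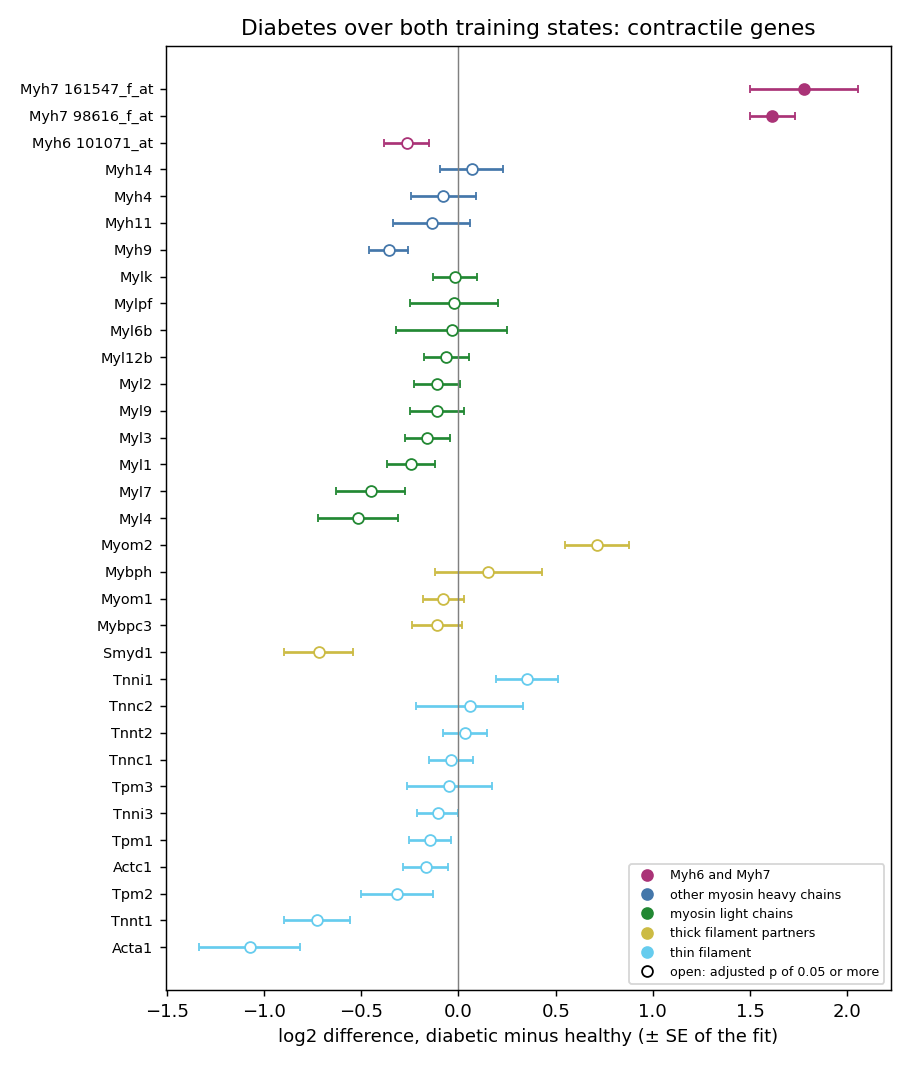
Log2 difference of diabetic minus healthy hearts over both training states (± SE of the fit) for the Myh6 and Myh7 probe sets and for the listed contractile genes that passed the filter, 1 probe set per other gene. Filled points have an adjusted p under 0.05, which only the 2 Myh7 probe sets (1.62 and 1.78) reached among the genes shown.

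Myh7 is often read as part of a fetal or slow programme, so both were listed. Of 12 fetal and stress genes of the heart, 0 were called, and 7 differences were above and 5 below 0 (median 0.08). The smallest p was that of Mt1, a metal-binding stress protein, at 0.74 ± 0.17 (SE, adjusted p = 0.0692), followed by Acta1, given above. Acta2, smooth muscle actin, stood at -0.43 ± 0.14 (SE, adjusted p = 0.216). The natriuretic peptides Nppa and Nppb stood at 0.35 ± 0.13 (adjusted p = 0.296) and 0.64 ± 0.25 (adjusted p = 0.331). Of 10 genes of slow muscle fibres 0 were called, and 9 differences were below 0 (median -0.10), with Tnni1, slow troponin I, at 0.35 ± 0.16 (SE, adjusted p = 0.42).

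Genes of thyroid hormone action, which is known to set the balance of the 2 isoforms, were read next. Of 8 receptors, partners and activating enzymes 0 were called (median -0.17), and the receptor gene Thra differed by -0.30 ± 0.11 (SE, adjusted p = 0.296). Thrb did not rise above the highest control signal on any array. Of 11 known thyroid hormone targets, Ucp3, a mitochondrial carrier, was called higher (0.93 ± 0.18 SE, adjusted p = 0.0449) and Thrsp, a regulator of lipid synthesis, lower (-0.60 ± 0.12 SE, adjusted p = 0.0461). Of 28 regulators of myosin genes, only Fhl2, a LIM-domain cofactor of heart muscle, was called (-0.53 ± 0.10 SE, adjusted p = 0.0455 in limma). Of the 28 differences, 13 were above and 15 below 0, with a median of -0.03 against -0.02 over all probe sets. The list's signal, summed over 32 genes, was 2806.5 to 3601.1 in diabetic and 3653.5 to 3914.9 in healthy hearts, without overlap. Bright genes weigh most in such a sum, and Fhl2 alone averaged 1012 in diabetic and 1449 in healthy hearts. The sum therefore does not show a shift of the whole list. Over all probe sets 0.765% were called, against 1 higher and 1 lower of 11 targets and 1 of 28 regulators. The target calls went in opposite directions. The lists were chosen with earlier results of these data known, and whether they hold more calls than other lists was not tested. The 3 calls were also fragile. Ucp3 and Fhl2 were each called in 2 of 12 fits with 1 array left out, and Thrsp in 1, with adjusted p-values of up to 0.154 for Ucp3 and Fhl2 and 0.16 for Thrsp. No gene of these 9 lists (0) was called for training in limma.

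The genes most like each member were named by the correlation of log2 signals over the 12 arrays, among 6693 named probe sets, and are a description, since the arrays share condition and week. For the bright Myh7 probe set the highest were Acot1, an acyl-CoA thioesterase (r = 0.919), Bcl2l1, an apoptosis inhibitor (0.918), Fbp2, muscle fructose bisphosphatase (0.917), Ccn2, connective tissue growth factor (0.917) and Foxo3, a transcription factor repressed by insulin (0.901). The lowest were Ppa1, a pyrophosphatase (-0.933), Cdc34, a ubiquitin-conjugating enzyme (-0.914), Fhl2 (-0.913), Tmx2 (-0.901) and Ifngr2, a subunit of the interferon gamma receptor (-0.898). For the dim Myh7 probe set the highest were Tgoln1 (0.938), Fbp2 (0.888), Nqo1 (0.879), the other Myh7 probe set and Capg (0.870), and the lowest Cdc34 (-0.919), Sh3bgr (-0.903), Hk2 (-0.891), Fhl2 (-0.890) and Hsph1 (-0.888). Fbp2, Cdc34 and Fhl2 stood among the ends of both Myh7 probe sets.

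In the comparison of diabetes, Ccn2 was 2.97-fold higher (log2 1.57 ± 0.14 SE, adjusted p = 0.000334), Fbp2 2.52-fold (1.33 ± 0.18 SE, adjusted p = 0.0103) and Acot1 2.30-fold (1.20 ± 0.16 SE, adjusted p = 0.0103, all limma). They were chosen for likeness to Myh7 over the same arrays, so these calls are no separate support. Of the others named for Myh7, Bcl2l1, Cdc34, Fhl2, Tmx2, Sh3bgr and Hsph1 were also called in limma. Foxo3, Tgoln1, Nqo1, Capg, Hk2, Ppa1 and Ifngr2 were not (adjusted p from 0.0558 to 0.156). Ccn2 was called without each of the 12 arrays. Fbp2 was not called once the week-5 array of healthy sedentary hearts was left out (adjusted p = 0.0512) or the diabetic sedentary array of week 1 (0.057), nor was Acot1 without those (0.0512 and 0.057) or the healthy trained array of week 5 (0.0566). Myh6 tracked another group. Its highest were the cardiac actin Actc1 (0.923 and 0.917 on 2 probe sets), cardiac troponin I, Tnni3 (0.921), Myl2 (0.904) and Ramp3, a receptor activity modifier (0.857), and 4 of these 5 probe sets read cardiac sarcomere genes. Its lowest were Chmp3 (-0.887), Brd1 (-0.880), catalase, Cat (-0.846), Cmpk1 (-0.838) and Hnrnpd (-0.821). Myh6 itself correlated with the bright Myh7 probe set at -0.443 and with the dim Myh7 probe set at -0.480.

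Markers of other cell types were summed on each array. The adipocyte list, of which 6 of 8 genes had a probe set and 4 passed the filter, summed to 230.1 to 386.1 in diabetic and 170.1 to 219.8 in healthy hearts, and these ranges did not overlap. Its members Retn and Cidec were below the highest control signal on every array, and 0 of the 4 tested were called. Its part in the Myh7 result was not tested. Over both training states the other lists overlapped between diabetic and healthy hearts, among them atrial muscle (2120.7 to 3624.9 against 2689.4 to 4548.8), skeletal muscle (361.9 to 874.1 against 404.1 to 600.4, with Myh1 and Myh2 below the highest control signal) and fibroblasts (2709.5 to 3477.2 against 2907.5 to 3514.8). Within sedentary hearts alone, diabetic sums lay below healthy ones for cardiomyocytes (26139.0 to 28033.6 against 28475.0 to 35478.1), ventricular muscle (6851.6 to 7412.9 against 7777.7 to 9715.3) and skeletal muscle (361.9 to 435.8 against 437.4 to 600.4). They lay above for endothelium (1219.5 to 1391.1 against 1084.4 to 1181.7). The remaining lists other than adipocytes overlapped there, and in trained hearts only the adipocyte sums lay apart. How many of all probe sets separate 3 arrays from 3 in this way was not counted. Myl2 and Myl3 belong to both the cardiomyocyte and the ventricular list. In the sedentary comparison, 0 genes of the cardiomyocyte, ventricular, skeletal muscle and endothelium lists were called in limma. The ratio of 3' to 5' Gapdh signals, a measure of RNA quality, ran from 1.062 to 1.247 in diabetic and from 1.032 to 1.211 in healthy hearts. The same ratio for actin was higher and more variable, from 1.745 to 2.519 in diabetic and from 1.704 to 2.46 in healthy hearts.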

How the data were processed

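Per the submitters' processing notes, the authors computed the deposited intensities with MAS5; they are linear signals, 1 per probe set. Version and settings: not given in the sources used here. The experiment files were read for batches only. From these values, signals under 4.1 (the 20th percentile) were set to 4.1 and log2 was taken. The 7453 of 12422 probe sets whose mean log2 reached the 40th percentile (geometric mean signal 11.6) entered the tests, and 66 controls were left out. limma 3.58.1 in R 4.3.3 fitted condition and week to all 12 arrays (6 residual degrees of freedom, 5 for the change per week), with an intensity trend and Benjamini-Hochberg adjustment over all probe sets tested at a threshold of 0.05. It was tested on simulated data. Ratios of Myh7 to Myh6 were tested by exact permutation within weeks, with the other factor's fitted effect removed first where 1 array was left out. Symbols came from the array annotation, updated through RefSeq gene identifiers for 10817 probe sets; 10833 had 1 symbol, 396 several and 1193 none. In gene lists, each gene entered with its brightest probe set. Named were every Myh6 or Myh7 probe set, list genes past the threshold or otherwise up to 4 of smallest p (Myl2, Mylk and Nppb were added outside this rule after their values were seen), and the 5 genes most and least like each member. The members, lists and motifs were chosen with earlier results of these data known. Week was a block because the mice of a week were killed together and its arrays run on 1 day. The diabetic trained array of week 3, with a run day and a chip lot of its own, was the exception to the shared day. Deviations from condition means correlated at 0.08 to 0.64 within weeks (18 pairs) and at -0.452 to 0.246 between weeks (36 pairs). Alternatives covered the floor, scaling, filter, block, intensity trend, array weights, the form of the ratio test, and each array and week left out.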

Additional observations from a re-analysis of the deposited data

Results flagged for a closer look

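Over 20 groups of 6 arrays or fewer that were checked for an array far from the others, 3 stood out, where chance alone gives about 1 in 20. The Myh6 signal of the diabetic trained array of week 1 was 4473.1, against 3557.8 for the nearest of the other 5 diabetic arrays, a gap of 0.656 of the range (limit 0.625). The signal of the dim Myh7 probe set on the diabetic trained array of week 3 was 101.7, against 44.7 for the nearest trained array, a gap of 0.63 of the range. The ratio of the dim Myh7 probe set to Myh6 on that array was 0.028585, against 0.012383 for the nearest trained array, a gap of 0.636 of the range. The last 2 concern the array whose RNA was labelled a second time. They set diabetic beside healthy trained arrays, which also differ by condition.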

How the results depend on the processing

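With the 12 arrays as pools of 5 mice, the main results are limited in that 1 array stands for a condition and week, that condition shares its fluidics module and that week 5 shares its run day and lot. The probe sets called for diabetes numbered 57, and 0 to 192 under the alternatives. The direction of Myh7 for diabetes, with both probe sets and both ratios, was the same in every alternative run. For the dim Myh7 probe set the diabetes call was lost without a filter on dim probe sets (1.78, adjusted p = 0.155), without an intensity trend (1.78, 0.0682), without week 1 (1.85, 0.195) and without week 5 (2.10, 0.0832), and single arrays left out gave 1.53 to 2.05. For the bright Myh7 probe set it was lost without week 5 alone (1.59, 0.0501).

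For the bright Myh7 probe set in diabetic against healthy sedentary hearts, the call was lost with arrays centred on their medians (1.56, adjusted p = 0.0838), with no replicate block for week (1.53, 0.11), with no filter (1.53, 0.12), without week 1 (1.38, 0.526) and without week 5 (1.63, 0.271), and single arrays left out gave 1.39 to 1.62. In diabetic against healthy trained hearts it was lost with centring (1.59, 0.0716), with no block (1.70, 0.0979), with no filter (1.70, 0.104), with only the arrays compared (1.70, 0.209), without week 1 (1.81, 0.0584) and without week 5 (1.54, 0.326). For the dim Myh7 probe set the sedentary comparison passed with array weights (1.83, 0.0164) and with only the arrays compared (1.67, 0.0259), and single arrays left out gave 1.51 to 1.92 there and 1.40 to 2.44 in the trained comparison. The block changed no other call on the members beyond those named here and that on diabetic trained against healthy sedentary hearts (1.32, 0.353 without it).

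For the ratios, exchanging pairs within week and state gave an adjusted p of 0.0938 for diabetes with both (1.88 and 2.05), and limma with the log2 ratio as a row gave 0.0904 (1.88) and 0.306 (2.05). Leaving out a week leaves 36 arrangements, too few to pass after adjustment (0.167). The values were 1.92, 1.90 and 1.82 for the bright Myh7 probe set and 2.18, 1.62 and 2.34 for the dim Myh7 probe set without weeks 1, 3 and 5. Single arrays left out gave 1.77 to 1.97 and 1.84 to 2.30, and for training with the bright Myh7 probe set -0.43 to -0.24.

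The uncalled differences below changed sign, and the cause was not tested. With centring, Myh6 for training was -0.0042, Myh6 at week 5 against week 3 was 0.14 and the bright Myh7 probe set at week 3 against week 1 was -0.0059. With quantile normalization the interaction for the ratio with the dim Myh7 probe set was 0.18. With array weights, the dim Myh7 probe set had an interaction of -0.29 and a difference of -0.032 at week 3 against week 1. Without week 1, Myh6 for training was -0.10, the dim Myh7 probe set in diabetic trained against diabetic sedentary hearts 0.10, the change of the Myh6 diabetes effect per week 0.001, the ratio with the dim Myh7 probe set for training 0.078 and the interaction for the ratio with the bright Myh7 probe set 0.11. Without week 3, healthy trained against healthy sedentary hearts gave 0.045 for Myh6 and 0.0066 for the dim Myh7 probe set, and the interactions were -0.28 for the dim Myh7 probe set and 0.0043 for the ratio with the bright Myh7 probe set. Without week 5, the interactions were -0.092 for the bright Myh7 probe set and 0.22 for the ratio with the dim Myh7 probe set, and the changes per week 0.47 for the dim Myh7 probe set and -0.075 for the bright Myh7 probe set.

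With single arrays left out, training ran from -0.038 to 0.10 for Myh6 and from -0.49 to 0.027 for the dim Myh7 probe set. Healthy trained against healthy sedentary hearts ran from -0.26 to 0.0084 for Myh6 and from -0.88 to 0.16 for the dim Myh7 probe set, and diabetic trained against diabetic sedentary hearts from -0.48 to 0.083 for the dim Myh7 probe set. The interaction ran from -0.27 to 0.77 for the dim Myh7 probe set, from -0.44 to 0.22 for its ratio and from -0.55 to 0.11 for the ratio with the bright Myh7 probe set. Week 3 against week 1 ran from -0.19 to 0.0092 for Myh6 and from -0.0078 to 0.18 for the bright Myh7 probe set. The change of the diabetes effect per week ran from -0.087 to 0.0057 for Myh6, from -0.26 to 0.11 for the dim Myh7 probe set and from -0.059 to 0.075 for the bright Myh7 probe set. Counts of probe sets called at week 5 ran from 272 to 2408 against week 1 (1145 over all arrays) and from 275 to 1717 against week 3 (1527).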
